A study of Mus musculus with 6 samples.

Results

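Glutamate and GABA receptor subunits are proteins that receive excitation and inhibition in the brain. They were followed here in the paraventricular hypothalamus (PVN), the small nucleus whose oxytocin, vasopressin, thyrotropin-releasing hormone and corticotropin-releasing hormone neurons drive pituitary output, after a single electroconvulsive seizure (ECS). The subunits were chosen by gene symbol alone, from the AMPA, NMDA, kainate, delta and metabotropic glutamate receptor families and from the GABA-A and GABA-B receptors. Every such gene with a probe set carrying 1 gene symbol was taken. Of the GABA-A genes, only alpha, beta, gamma, delta, epsilon and rho subunits were in the rule. That rule found 27 genes with 35 probe sets, of 12393 genes and 22626 probe sets in all, and each gene was read from its probe set of highest mean signal. The choice of genes by symbol uses no measured value. The choice of probe set does, since it rests on the measured signal of these arrays.

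The study compared 3 groups of C57Bl/6 mice with 2 arrays each. In the ECS 2 h group, mice under isoflurane received a current of 25 mA for 1 s through ear clips and the brain was taken 2 h later; in the ECS 6 h group the same shock was followed by collection at 6 h. Sham mice went through the same handling without current and were collected at 2 h only, so a difference between ECS 6 h and sham also spans different collection times. Each array held pooled RNA of 2 to 3 animals, with the PVN cut by laser from 7 µm sections and 2 ng of total RNA amplified. The labels give neither the age nor the sex of the mice. Replicate 1 and replicate 2 were taken as the separate runs of the experiment, each with its own animals. The labels do not tie the replicate number to a run outright, so a run below means a replicate number.

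Most excitatory transmission runs through AMPA receptors, tetramers that open for sodium as soon as glutamate binds, and through NMDA receptors, which also need membrane depolarisation and let calcium in. GABA-A receptors are pentameric chloride channels: those with a gamma subunit mostly serve synapses, and those with the delta subunit sit outside synapses and answer low ambient GABA and neurosteroids. GABA-B receptors are G protein coupled dimers of Gabbr1 and Gabbr2. In the PVN, GABA inputs restrain the stress hormone neurons and glutamate inputs activate them.

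In these arrays 13 of the 27 subunit genes gave enough signal to be tested, and none of them passed the test in any comparison. Levels are given below as normalised log2 signal, that is log2 of the quantile-normalised array signal plus 16, so the scale has a floor of 4, and a difference of 1 is a 2-fold difference of signal plus offset. The median of all probe sets lay at 5.56 on this scale. A probe set was tested when it reached the median of its own array on at least 2 of the 6 arrays. A brighter probe set does not mean more RNA than a dimmer one, since each binds with its own efficiency, so levels are compared only between arrays for the same probe set.

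The AMPA family was the most completely measured, with 4 of 4 genes tested. Gria1, which encodes a subunit added to synapses during plasticity, had 7.39 and 8.26 in ECS 2 h, 7.23 and 8.19 in ECS 6 h, and 7.69 and 8.63 in sham. The larger difference here was between the runs: replicate 2 exceeded replicate 1 by 0.87 in ECS 2 h, by 0.97 in ECS 6 h and by 0.94 in sham. A second Gria1 probe set ran the other way, with 7.81 and 6.73 in ECS 2 h, 7.55 and 7.21 in ECS 6 h, and 7.45 and 7.24 in sham. Gria2, whose edited subunit keeps AMPA channels closed to calcium, had 8.49 and 8.60 in ECS 2 h, 8.03 and 8.69 in ECS 6 h, and 8.88 and 8.78 in sham. Both sham arrays lay above all 4 ECS arrays. Gria3, encoded on the X chromosome, had 6.88 and 7.42 in ECS 2 h, 7.30 and 6.97 in ECS 6 h, and 8.27 and 7.41 in sham. Only replicate 1 of sham stood clearly apart for Gria3, and replicate 2 of sham lay inside the range of the ECS 2 h arrays. Gria4, a subunit with fast channel kinetics, stayed between 5.99 and 6.47 on the 6 arrays.

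The NMDA family was dim throughout, and 0 of its 5 measured genes met the filter. Grin2a, the regulatory subunit of the mature forebrain, had 4.33 and 4.75 in ECS 2 h, 4.11 and 5.14 in ECS 6 h, and 4.49 and 5.07 in sham. Grin2b, the regulatory subunit that dominates in early development, had 4.80 and 4.86 in ECS 2 h, 4.11 and 4.89 in ECS 6 h, and 4.46 and 4.64 in sham. Its second probe set was as dim, between 4.16 and 4.86. These values lie near the floor, where the offset compresses any difference, so a change of the NMDA subunits could not be measured with these probe sets. Grin2c, Grin2d and Grin3b spanned 4.10 to 5.85 and reached their array's median at most once each. The obligatory subunit Grin1 was not analysed here, nor was Grin3a.

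Of the 4 kainate receptor genes, Grik1 and Grik2 were tested. Grik1 had 5.87 and 6.52 in ECS 2 h, 5.53 and 6.37 in ECS 6 h, and 6.72 and 6.29 in sham, with the groups overlapping. Grik2 had 5.99 and 5.99 in ECS 2 h, 5.58 and 6.05 in ECS 6 h, and 6.26 and 5.99 in sham, also overlapping. Grik3 and Grik5, the delta family gene Grid1 and the metabotropic receptor gene Grm8 were not tested, and their values ran from 4.11 to 5.58. Other genes of these families were not analysed here.

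Among the chosen GABA-A genes, 6 of the 11 measured were tested. Gabra2, one of the alpha subunits that line the benzodiazepine site, had 7.43 and 7.55 in ECS 2 h, 6.96 and 7.39 in ECS 6 h, and 7.23 and 7.24 in sham. Both ECS 2 h arrays lay above every array of the other groups, by a small margin. Gabrb1, a beta subunit that forms the GABA binding face together with an alpha subunit, had 7.37 and 8.01 in ECS 2 h, 7.01 and 7.90 in ECS 6 h, and 7.41 and 8.12 in sham, and again the runs differed more than the groups. Gabrg1, a gamma subunit known to be frequent in the hypothalamus and amygdala, had 8.92 and 9.65 in ECS 2 h, 9.32 and 9.43 in ECS 6 h, and 9.08 and 9.24 in sham. Gabrd, the extrasynaptic delta subunit, had 5.34 and 4.63 in ECS 2 h, 5.49 and 5.94 in ECS 6 h, and 6.19 and 6.49 in sham. The 3 groups did not overlap for Gabrd, with ECS 2 h lowest and sham highest.

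Gabra3 and Gabrg3 completed the tested GABA-A genes. Gabrg3 stayed between 5.77 and 6.48. Gabra3 reached its array's median on 2 arrays only and spread from 4.23 to 5.96 within ECS 6 h alone. Gabra6, Gabrb2, Gabre, Gabrr1 and Gabrr2 were not tested, with values between 4.01 and 6.04. Gabra6, a subunit of cerebellar granule cells, stayed at or below 4.58, and Gabrr1, known from the retina, at or below 4.04. Other alpha, beta, gamma and rho genes were not analysed here.

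Gabbr1, the ligand-binding subunit of the GABA-B receptor, had 10.63 and 10.70 in ECS 2 h, 11.07 and 10.91 in ECS 6 h, and 11.17 and 10.84 in sham. Both ECS 2 h arrays lay below the other 4. The gene has 4 probe sets, and they do not tell one story. A second one followed the same order, with 8.35 and 8.01 in ECS 2 h, 8.89 and 8.80 in ECS 6 h, and 8.95 and 8.66 in sham. Another ran opposite, with 7.69 and 7.76 in ECS 2 h, 7.40 and 7.69 in ECS 6 h, and 7.01 and 7.20 in sham, so that both sham arrays were lowest. The last one lay near the floor, between 4.04 and 4.40, and was not tested. The gene is known to make isoforms from separate promoters, and which of them each probe set reads was not tested. Gabbr2 was not analysed here.

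**Figure D1:**
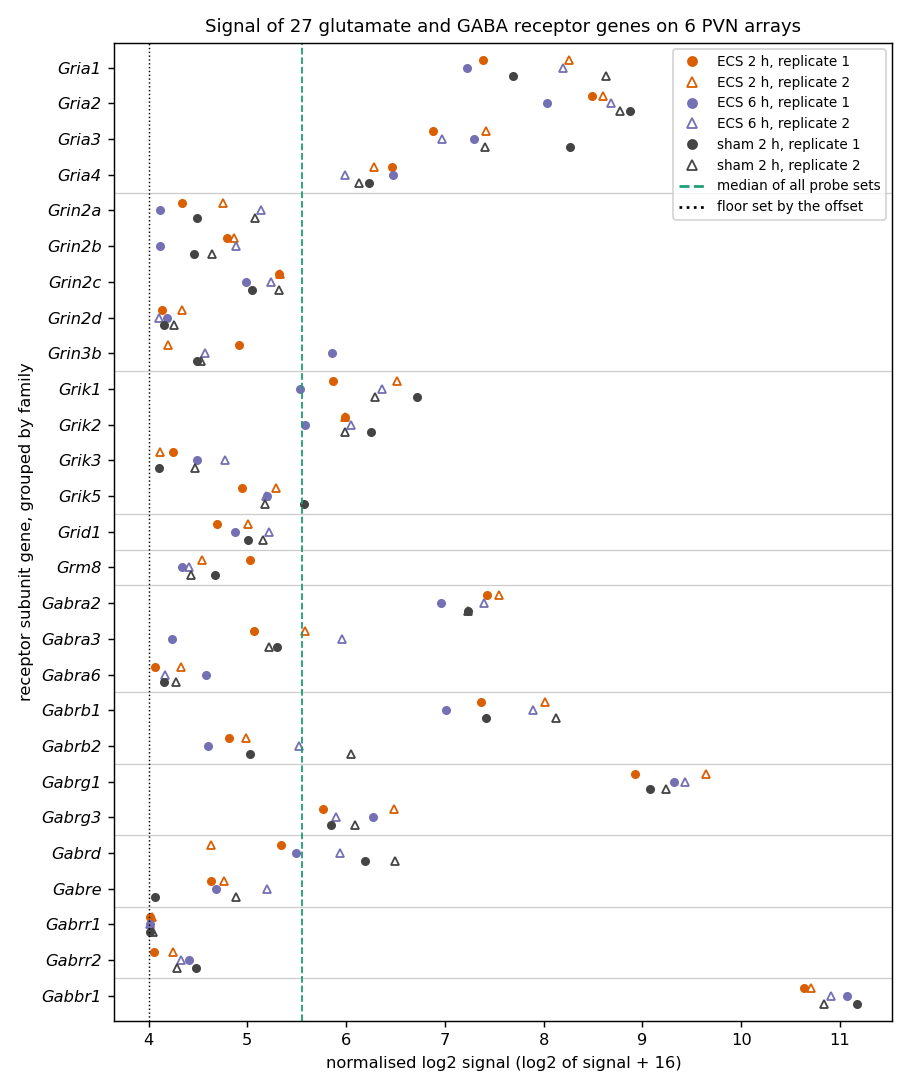
Normalised log2 signal (x axis) of the 27 receptor genes (y axis, grouped by family), with 1 symbol per array: circles are replicate 1 and triangles replicate 2 of ECS 2 h, ECS 6 h and sham 2 h. The 5 NMDA genes sit between the dotted floor at 4 and 5.85, mostly below the dashed median of all probe sets at 5.56, while the AMPA genes Gria1 to Gria4 sit above that median on every array.

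The upstream sequences of 4 members follow, for Gabbr1 because its probe sets disagreed and for Gabrg1, Gabra2 and Gabrb1 because these neighbours of a gene cluster on chromosome 5 are set side by side further on. Each run is the 250 bases before the annotated start in RefSeq (GRCm38.p6), with GC box letters in capitals and all else in lower case; for Gabrb1 the first of its annotated starts is given.
Gabbr1 (chr17:37045716-37045965, plus strand): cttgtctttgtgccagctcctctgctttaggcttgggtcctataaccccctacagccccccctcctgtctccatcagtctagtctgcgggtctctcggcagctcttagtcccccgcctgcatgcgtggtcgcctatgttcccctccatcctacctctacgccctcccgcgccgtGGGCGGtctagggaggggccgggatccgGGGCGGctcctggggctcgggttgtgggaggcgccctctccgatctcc
Gabrg1 (chr5:70842618-70842867, minus strand): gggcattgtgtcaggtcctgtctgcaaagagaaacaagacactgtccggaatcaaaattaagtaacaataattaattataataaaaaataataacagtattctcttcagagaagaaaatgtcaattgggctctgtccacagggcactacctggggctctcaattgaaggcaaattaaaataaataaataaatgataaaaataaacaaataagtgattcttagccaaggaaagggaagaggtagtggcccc
Gabra2 (chr5:71095850-71096099, minus strand): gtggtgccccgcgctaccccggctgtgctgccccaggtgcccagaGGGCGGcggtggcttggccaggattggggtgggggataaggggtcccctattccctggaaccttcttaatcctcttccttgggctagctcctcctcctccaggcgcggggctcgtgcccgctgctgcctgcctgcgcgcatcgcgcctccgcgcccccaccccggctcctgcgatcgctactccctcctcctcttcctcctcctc
Gabrb1 (chr5:71657671-71657920, plus strand): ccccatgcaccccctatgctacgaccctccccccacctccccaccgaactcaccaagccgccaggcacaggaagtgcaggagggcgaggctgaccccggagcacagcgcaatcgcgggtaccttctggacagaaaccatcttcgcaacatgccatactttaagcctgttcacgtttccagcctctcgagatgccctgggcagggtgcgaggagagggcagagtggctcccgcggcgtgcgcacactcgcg

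Motifs were searched on both strands as letters only, in the 26 upstream sequences available here for 20 of the 27 genes. The GC box GGGCGG stood in 10 of the 26, against 32.7% of 32851 upstream sequences of all genes. It was found 2 times before Gabbr1, with its first base 76 and 48 bases ahead of the start, and 1 time before Gabra2. The cAMP response element TGACGTCA, the palindrome read by CREB, stood in 0 of the 26, against 1.55% of all. The AP-1 letters TGANTCA, read by Fos and Jun dimers, stood before Grin3b and Grm8, against 6.75% of all. The EGR letters GCGNGGGCG, which can overlap a GC box, stood before Gabrb2 and Gria4, against 4.70% of all. These are matches of letters within 250 bases and say nothing of binding.

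The first comparison asks what the receptor genes did 2 h after the seizure, when immediate early genes and their first targets are known to be active. Limma with Benjamini-Hochberg adjustment over 12662 tested probe sets called 0 of the 13 tested subunit genes at an adjusted p of 0.05, and 0 probe sets (0%) overall. At an unadjusted p of 0.05 it marked 1 subunit gene, Gabrd, against 507 probe sets or 4% of all tested. Gabrd was lower by log2 1.36 ± 0.45 (SE, limma), a 2.56-fold lower signal plus offset, at 4.99 ± 0.50 in ECS 2 h and 6.34 ± 0.21 in sham (SD, n = 2 arrays each). Its unadjusted p in limma was 0.0121 and its adjusted p 0.999, so the difference did not pass the test. It was lower in both runs, with log2 changes of -0.85 and -1.86. Over 14 alternative settings its change ran from -2.07 to -0.69 and its adjusted p in limma from 0.602 to 1. Gabrd met the filter on 0 of the 2 ECS 2 h arrays, 1 of the 2 ECS 6 h arrays and both sham arrays, so it entered the test mainly through the group where it was brightest.

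Gabbr1 came next, lower by 0.34 ± 0.18 (SE) with an adjusted p of 0.999 in limma. Its second probe set was lower by 0.62 ± 0.30, and the oppositely ordered one was higher by 0.62 ± 0.34, so the direction for the gene depends on the probe set. Gria3 was lower by 0.69 ± 0.40, a value set by replicate 1 alone, where the change was -1.39, against 0.01 in replicate 2. Gria2 was lower by 0.28 ± 0.32, and its second probe set, at 8.65 and 7.51 in ECS 2 h, 7.22 and 7.67 in ECS 6 h, and 8.25 and 8.06 in sham, gave -0.07 ± 0.41 with overlapping groups. Gria1 was lower by 0.33 ± 0.47. Without ECS 2 h replicate 1, or without sham replicate 2, Gria1 turned to 0.11 and 0.14. Gabra2 was higher by 0.25 ± 0.35, in both runs. For each of these, limma gave an adjusted p of 0.999.

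Across all 27 genes at 2 h, 16 were lower and 11 higher, against 49% of all 12393 genes lower. Both ECS 2 h arrays lay below both sham arrays in 5 genes, namely Gabrd, Gabbr1, Gria2, Gabrb2 and Gabrr2, where 16.3% of all genes did so. They lay above both sham arrays in 3 genes, namely Gria4, Gabra2 and Grin2b, where 16.6% of all genes did. The median change over the 27 was -0.08, against 0.01 over all genes. These shares are near those of all genes, so they are no result about the receptors. Without sham replicate 2, 10 of the 27 were lower.

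The second comparison sets ECS 6 h against sham. Limma called 0 of the 13 tested genes and 0% of all probe sets, and at an unadjusted p of 0.05 it marked 0 of the 13, against 476 probe sets or 3.76%. The smallest p belonged to Gria3, lower by 0.70 ± 0.40 (SE), at 7.13 ± 0.23 in ECS 6 h and 7.84 ± 0.61 in sham (SD, n = 2 arrays each, limma adjusted p = 1). It was lower in both runs, with log2 changes of -0.97 and -0.44. Gria2 was lower by 0.47 ± 0.32 on its brightest probe set and by 0.70 ± 0.41 on the other, and on both the ECS 6 h arrays lay below the sham arrays. On the brightest the runs gave -0.85 and -0.09, and the change was -0.14 without ECS 6 h replicate 1. For Gria3 it was -0.28 without sham replicate 1. Gria1 was lower by 0.45 ± 0.47, with overlapping groups. Its second probe set gave 0.03 ± 0.41, and without ECS 6 h replicate 1 or without sham replicate 2 its first gave 0.04 and 0.02.

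Gabrd was lower by 0.63 ± 0.45 at 6 h (-0.40 without ECS 6 h replicate 1), at 5.72 ± 0.32 in ECS 6 h and 6.34 ± 0.21 in sham, and again lower in both runs. The kainate subunits Grik1 and Grik2 were lower by 0.55 ± 0.44 and 0.31 ± 0.40. Both values came from replicate 1, where the log2 change was -1.19 for Grik1 and -0.68 for Grik2, while replicate 2 gave 0.08 and 0.06. Gabra2 differed by -0.06 ± 0.35 and Gabbr1 by -0.01 ± 0.18, and both take the other sign when the arrays are left unscaled or only centred on their medians. The oppositely ordered Gabbr1 probe set was higher by 0.44 ± 0.34. Each of these had an adjusted p of 1 in limma.

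At 6 h, 20 of the 27 genes were lower and 7 higher, against 48.8% of all genes lower. This count falls to 12 of 27 without sham replicate 2 and to 15 without ECS 6 h replicate 1. Many of the 20 differences were minute, and the median change over the 27 was -0.06, against 0.01 over all genes. Over the 13 tested genes the median was -0.31, and -0.07 without ECS 6 h replicate 1. Both ECS 6 h arrays lay below both sham arrays in 4 genes, namely Gria2, Gria3, Gabrd and Grm8, where 14.8% of all genes did so. They lay above both in 3 genes, namely Gabrg1, Grik3 and Grin3b, where 16.1% of all genes did. The comparison shares its sham arrays with the one at 2 h, so a sham array that is high for a gene lowers both changes.

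**Figure D2:**
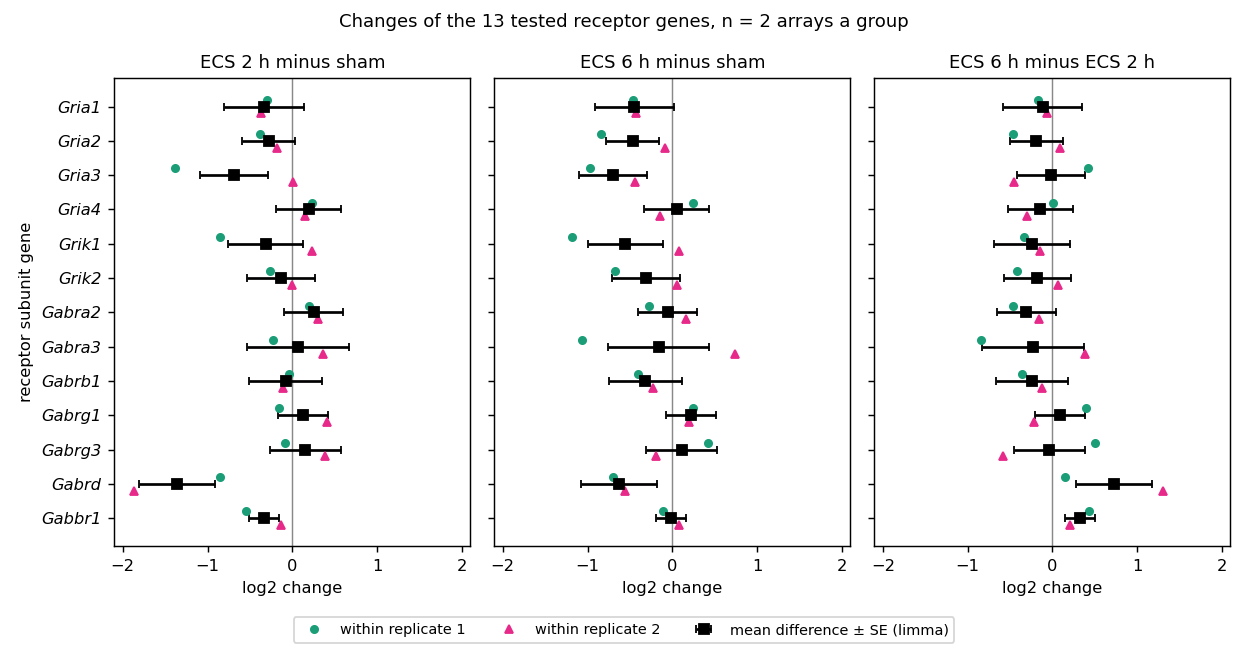
Log2 change (x axis) of the 13 tested receptor genes (y axis) in ECS 2 h minus sham, ECS 6 h minus sham and ECS 6 h minus ECS 2 h. Squares with bars are the mean difference ± SE from limma on 2 arrays a group, circles and triangles the difference within replicate 1 and within replicate 2. Gabrd at 2 h, with -1.36, lies farthest from 0, and for Grik1 and Gria3 the runs differ widely.

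The third comparison sets the ECS groups against each other, ECS 6 h minus ECS 2 h, and does not involve the sham arrays in the difference. Limma called 0 of the 13 tested genes and 0% of all probe sets. At an unadjusted p of 0.05 it marked 0 of the 13 genes, against 436 probe sets or 3.44%. Gabbr1 was higher by 0.32 ± 0.18 (SE) at 6 h, with both ECS 6 h arrays above both ECS 2 h arrays. Its second probe set was higher by 0.66 ± 0.30, with an unadjusted p in limma of 0.047 and an adjusted p of 0.999, and the oppositely ordered one was lower by 0.18 ± 0.34. Gabrd was higher by 0.73 ± 0.45, with 0.15 in replicate 1 and 1.31 in replicate 2. Gabra2 was lower by 0.31 ± 0.35, in both runs.

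The AMPA subunits and the remaining named genes overlapped between 6 h and 2 h. Gria2 was lower by 0.19 ± 0.32 on its brightest probe set and by 0.63 ± 0.41 on the other, where replicate 1 gave -1.43 and replicate 2 gave 0.16, and the mean of its probe sets gave -0.41. Gria1 was lower by 0.11 ± 0.47, Gabrb1 by 0.24 ± 0.43 and Grik1 by 0.24 ± 0.44. Each of these 4 took the other sign without ECS 6 h replicate 1, with 0.13 for Gria2 on its brightest probe set, 0.37 for Gria1, 0.20 for Gabrb1 and 0.17 for Grik1. Of the 27 genes, 15 were lower and 12 higher, against 49.6% of all genes lower. Both ECS 6 h arrays lay below both ECS 2 h arrays in 3 genes (15.3% of all genes) and above both in 4 genes (15.4% of all genes). Without scaling 10 of 27 were lower, without ECS 2 h replicate 2 it was 7, and without ECS 6 h replicate 1 it was 9.

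**Figure D3:**
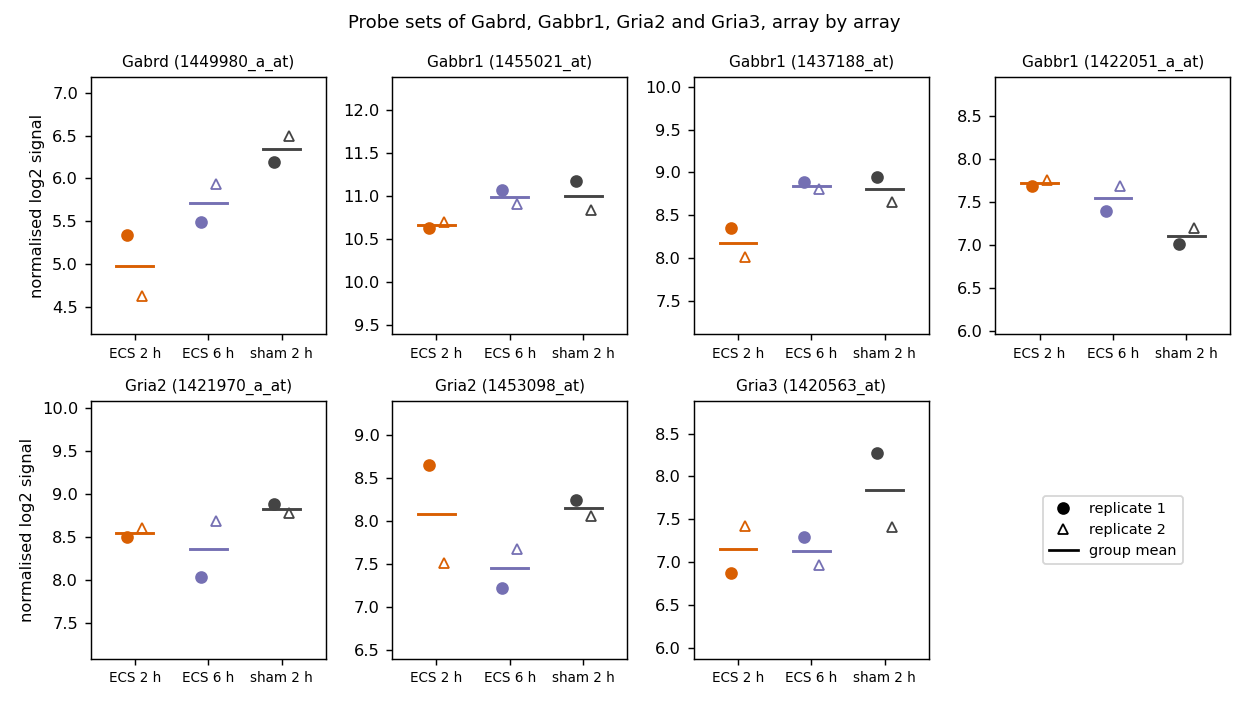
Normalised log2 signal (y axis, spanning 3 units in each panel) of the tested probe sets of Gabrd, Gabbr1, Gria2 and Gria3 in ECS 2 h, ECS 6 h and sham 2 h (x axis). Symbols are single arrays and lines are group means of 2 arrays. Gabrd orders the groups without overlap, with means of 4.99, 5.72 and 6.34, and the Gabbr1 panel at the far right runs opposite to the other Gabbr1 panels.

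Same-numbered arrays shared an order in several receptor genes. On the brightest probe sets, replicate 2 lay above replicate 1 in all 3 groups in 11 of the 27 genes, namely Gria1, Grin2a, Grin2b, Grin2c, Grid1, Gabra2, Gabrb1, Gabrb2, Gabrg1, Gabre and Gabrr1, where 14.6% of all genes showed that order. The reverse order held in 1 of the 27 and in 17.9% of all genes. Of the 11 genes, 7 were too dim to test, and some of the differences were minute, such as 0.0023 for Gabra2 in sham. The second Gria1 probe set had the reverse order in all 3 groups. The count depends on the scaling. Without scaling it was 15 of 27, against 28.8% of all genes. With arrays only centred on their medians it was 7 of 27 in this order and 6 in the reverse one, against 11.5% and 27.2% of all genes. Among the 13 tested genes it was 4 of 13 on the normalised scale, namely Gria1, Gabra2, Gabrb1 and Gabrg1, against 17.1% of all tested genes. It was 4 of 13 with median centring, against 17.1%, and 8 of 13 without scaling, against 36.7%. What the shared order comes from was not tested.

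Gabrg1, Gabra2 and Gabrb1 are neighbours on chromosome 5, in a cluster that also holds Gabra4. On their brightest probe sets all 3 had replicate 2 above replicate 1 in each group. The second Gabrg1 probe set did not, with 5.86 and 5.98 in ECS 2 h, 6.43 and 6.40 in ECS 6 h, and 5.90 and 6.16 in sham. The excess was 0.64, 0.89 and 0.71 for Gabrb1 in ECS 2 h, ECS 6 h and sham. For Gabrg1 it was 0.72, 0.11 and 0.16, and for Gabra2 it was 0.12, 0.43 and 0.00, in the same order of groups. Against sham, their changes at 2 h were 0.13 for Gabrg1, 0.25 for Gabra2 and -0.08 for Gabrb1. At 6 h against sham they were 0.22, -0.06 and -0.32 in the same order of genes. The second Gabrg1 probe set gave -0.11 ± 0.38 at 2 h and 0.39 ± 0.38 at 6 h against sham, so the sign for Gabrg1 at 2 h depends on the probe set.

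The proteins that hold these receptors at the membrane were read from a list of 46 genes, of which 32 had a probe set and 28 were tested. The list holds scaffold, auxiliary and trafficking genes, and also names Gabrq and Gabrp, which are themselves GABA-A receptor subunits outside the rule above. Each was read from its brightest probe set only. Other probe sets of these genes, and values with an array left out, are not given gene by gene. The same holds for the marker lists further on. Limma called 0 of the 28 in each comparison. At 2 h against sham, 15 of the 28 were lower and 13 higher, and 2 of the 28 had an unadjusted p below 0.05 in limma, both lower, against 4% of all tested probe sets. The count was 2 of the 28 at 6 h against sham, where 3.76% of all had one, and 3 of the 28 at 6 h against 2 h, where 3.44% had one. Nsf, the ATPase that frees SNARE proteins and binds the tail of Gria2, had 7.60 and 7.05 in ECS 2 h, 8.15 and 8.61 in ECS 6 h, and 8.61 and 8.23 in sham. It was lower by 1.09 ± 0.35 at 2 h against sham and higher by 1.05 ± 0.35 at 6 h against 2 h, and both ECS 2 h arrays lay below the other 4. Cacng7, an auxiliary AMPA receptor protein of the stargazin family, had 4.98 and 6.04 in ECS 2 h, 6.20 and 6.50 in ECS 6 h, and 6.63 and 6.85 in sham. It was lower by 1.23 ± 0.44 at 2 h and, against ECS 2 h, higher by 0.84 ± 0.44 at 6 h. Cacng3, of the same family, and Nptx1, a pentraxin that gathers AMPA receptors, were lower by 0.87 ± 0.44 and 0.80 ± 0.41 at 2 h. Limma gave these 2 h differences an adjusted p of 0.999.

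At 6 h against sham, 17 of the 28 were lower and 11 higher. Homer1, the postsynaptic adaptor that ties metabotropic glutamate receptors to calcium stores, had 6.58 and 7.51 in ECS 2 h, 5.93 and 6.98 in ECS 6 h, and 7.66 and 7.76 in sham. It was lower by 1.26 ± 0.46 at 6 h, with all 4 ECS arrays below both sham arrays. Nptx1 was lower by 0.93 ± 0.41, the palmitoyl transferase Zdhhc3, which modifies gamma subunits of GABA-A receptors, by 0.78 ± 0.40, and Dlg3, a scaffold of NMDA receptors, by 0.58 ± 0.36. Each had an adjusted p of 1 in limma. At 6 h against 2 h, Grip1, a PDZ protein that binds Gria2, was higher by 1.18 ± 0.48 and Shank3, a postsynaptic scaffold, was lower by 0.96 ± 0.40, both with an adjusted p of 0.999 in limma. Over all 32 genes the median change was -0.12 at 2 h and -0.13 at 6 h against sham. With other scalings or 1 array left out, these medians ran from -0.15 to -0.03 and from -0.21 to -0.01. Without ECS 6 h replicate 1, 16 of the 32 were lower and 16 higher at 6 h. Both ECS arrays lay below both sham arrays in 11 of the 32 (34.4%) at 2 h, against 16.3% of all genes. At 6 h they did so in 9 of the 32 (28.1%), against 14.8%. They lay above both sham arrays in 3 of the 32 at 2 h and 2 at 6 h, against 16.6% and 16.1%. Both comparisons use the same sham arrays.

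Limma also called 0 of the tested markers of neurons, other cells and neighbouring brain regions, with a smallest adjusted p of 0.0563, and their values are given as a description. All 13 of 13 general neuron markers were lower at 2 h against sham (median -0.40) and 12 of 13 at 6 h (median -0.24). The 6 h count was 9 when arrays were unscaled or only centred, with medians of -0.07 and -0.05. Without ECS 6 h replicate 1 it was 10, with a median of -0.08. With other scalings or 1 array left out, the 2 h count ran from 11 to 13 and its median from -0.44 to -0.32. Of all genes, 49% were lower at 2 h and 48.8% at 6 h. Of 11 listed markers of cortex and hippocampus neurons, 9 had a probe set and 6 of these were bright enough to be tested. The 6 tested ones were lower at both times. The list was chosen with earlier results of these data known, so its counts and medians are description only. All 9 were lower at 2 h (median -1.50) and 7 of 9 at 6 h (median -0.85). Over the other scalings and with 1 array left out, these medians ran from -1.97 to -1.28 at 2 h and from -1.52 to -0.37 at 6 h, the last without ECS 6 h replicate 1. Their summed normalised signal was 249 to 284 in ECS 2 h, 495 to 1216 in ECS 6 h and 1889 to 2312 in sham. Camk2a, a kinase abundant in forebrain excitatory neurons, had 5.72 and 6.77 in ECS 2 h, 7.18 and 8.77 in ECS 6 h, and 8.86 and 9.09 in sham. None of these markers was listed at 0 on any array. The part of these cells in the receptor differences was not tested, and in pooled tissue fewer cells of a type and less RNA per cell cannot be told apart.

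Markers of PVN and hypothalamus neurons reached the median of their arrays only in part. Oxt, Avp, Trh, Sim1 and Sst reached the median on all 6 arrays, Pou3f2 on 3 of them and Otp on none, and Crh was not analysed here. The summed signal of the 7 measured PVN and hypothalamus markers was 5113 to 5834 in ECS 2 h, 5083 to 6045 in ECS 6 h and 4220 to 4254 in sham. Against sham, 5 of the 7 were higher and 2 lower at both times, down to log2 changes of -0.70 at 2 h and -0.44 at 6 h. The median change was 0.26 at 2 h and 0.33 at 6 h. Over the other scalings and with 1 array left out these medians ran from 0.03 to 0.36 and from 0.10 to 0.51, and both were lowest without sham replicate 2. Oligodendrocyte markers had a median change of -0.28 at 2 h and -0.68 at 6 h, endothelial and mural markers 0.65 and 0.34 (0.43 to 1.16 and 0.07 to 0.58 over the same alternatives), and microglia, astrocyte and thalamus markers between -0.10 and 0.05. The array medians of the deposited signal ran from 25.2 to 40.8. Replicate 1 of ECS 6 h had the lowest mean rank correlation with the other arrays, 0.887 against 0.906 to 0.919, and it is the array whose omission turned more signs of named receptor genes than that of any other array.

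**Figure D4:**
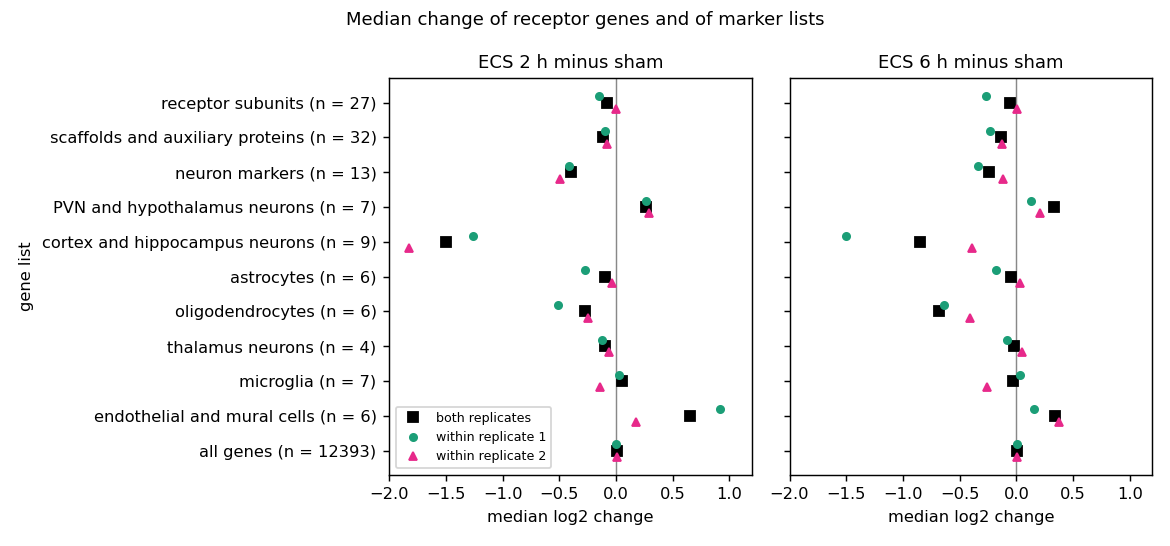
Median log2 change (x axis) of the receptor genes, of their scaffold and auxiliary proteins and of 8 marker lists, with all genes at the bottom (y axis, with the number of genes), for ECS 2 h minus sham and ECS 6 h minus sham. Squares are over both replicates, circles and triangles within each. The receptor medians of -0.08 and -0.06 lie near 0, and the cortex and hippocampus markers, at -1.50 and -0.85, lie farthest from it.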

How the data were processed

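The authors deposited array intensity on a linear scale, computed with MAS5 per the submitters' processing notes; version, target and detection calls are unknown here. Array medians differed, so log2(value + 16) was quantile normalised, and the offset shrinks changes of dim probe sets. Leaving aside 64 control probe sets, 20380 of 22626 carried 1 gene symbol in the array annotation, 691 several and 1555 none; all 27 receptor genes matched RefSeq. A probe set was tested if it reached the median of its array on 2 or more of the 6 arrays, which 12662 did. Group means over all 6 arrays were fitted by limma 3.58.1 (R 4.3.3) with eBayes and a variance trend (residual degrees of freedom 3, prior 7.64), and two-sided p-values were adjusted by Benjamini-Hochberg at 0.05. The fitting code was run on simulated data with independent arrays. Those data hold no deviation shared by same-numbered arrays, so the check cannot show how such a deviation affects the fit.

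Named members are Gria1, Gria2, Grin2a, Grin2b, Gabra2 and Gabbr1 by role, and the 6 smallest p-values per comparison; the scaffold list gives the 4 smallest per comparison. Other genes were named after their values were seen. The members and lists were chosen with earlier results of these data known.

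Same-numbered arrays deviated together, with correlations of 0.152, 0.229 and 0.185 over the 3 pairs of groups, and the replicate number was treated as marking a run. The labels' design text says the experiment was performed with separate sets of animals, but does not tie the replicate number to a run outright. Replicate 1 also had the lower median of deposited signal in each group, with 25.2 against 32.6 in ECS 2 h, 28.2 against 35.6 in ECS 6 h and 25.6 against 40.8 in sham. What the shared deviation comes from was not tested. Pools, not animals, are the replicates, and with 2 arrays a group an exact permutation test cannot go below p = 0.333. Alternatives were the offset, the scaling, the filter, the replicate block, the arrays in the fit, the probe set rule and leaving out each array.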

Additional observations from a re-analysis of the deposited data

How the results depend on the processing

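No receptor gene was called by limma under any of the 15 alternatives, in any comparison. With the replicate block, which pairs the arrays of a run, the count of called receptor genes was again 0, and limma called 4 probe sets over the whole table at 2 h, none of them a receptor, against 0 without the block. The whole-table count at 2 h was 1 without scaling and with median subtraction, 7 with only the 4 arrays of the comparison in the fit, and 10 without either ECS 6 h array. It was 6 at 6 h against sham and 3 at 6 h against 2 h when ECS 6 h replicate 2 was left out.

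Of 308 values of named receptor genes under the alternatives, 288 kept their direction and 20 reversed, 14 of these with 1 array left out. The cause was not tested. At 6 h against sham Gabra2 turned to 0.00348 without scaling and 0.029 with median subtraction, and Gabbr1 to 0.19 without scaling, 0.22 with median subtraction and 0.16 as the mean of its probe sets. At 6 h against 2 h Gria1 turned to 0.0457 without scaling. With 1 array left out, Gria1 ran from -0.81 to 0.14 at 2 h against sham and from -0.94 to 0.0372 at 6 h against sham, where Gabra2 ran from -0.27 to 0.15 and Gabbr1 from -0.19 to 0.16. At 6 h against 2 h it was -0.60 to 0.37 for Gria1, -0.52 to 0.13 for Gria2, -0.69 to 0.20 for Gabrb1 and -0.66 to 0.17 for Grik1.

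The median change of the tested receptor genes ran from -0.35 to 0.11 at 2 h against sham with 1 array left out, and from -0.29 to 0.17 at 6 h against 2 h. That last median was -0.14 as reported, -0.18 with offset 1, -0.0848 with offset 64, 0.000593 without scaling and -0.0933 with median subtraction. The number of the 27 genes that were lower, checked under alternatives chosen after seeing the data, ran from 10 to 20 at 2 h against sham, from 12 to 18 at 6 h against sham and from 7 to 18 at 6 h against 2 h. Without scaling the median of all tested probe sets itself shifted by 0.16 at 6 h against 2 h, and with median subtraction by 0.10 at 6 h against sham. The number of arrays, 2 per group, limits the precision of every value, and 14 of the 27 genes were too dim to test.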
